A study of Mus musculus with 15 samples.

Results

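The respiratory chain subunit genes of the mouse were followed in bulk RNA libraries from sorted derivatives of neuromesodermal progenitors (NMPs), which give rise to spinal cord and to paraxial mesoderm in the tail end of the embryo. Members were taken by gene symbol: Nduf for complex I, Sdh for complex II, Uqcr and Cyc1 for complex III, Cox4 to Cox8 for complex IV and Atp5 for complex V. Names marked as pseudogenes (-ps) were left out. This gave 87 nuclear genes. The 13 protein-coding genes of the mitochondrial genome, whose symbols start with mt-, were kept apart. Together they are 100 of the 56092 named genes in the table.

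The cells were STR-KI mouse embryonic stem cells and their derivatives, in all groups with the genotype Sox2::mCherry/WT, Tbxt::GFP/WT, so that each reporter sits on 1 allele and the other is wild type. All had gone through the same NMP protocol, with 48 h in 10 ng/mL FGF2 and then 24 h in FGF2 with 5 µM CHIR99021, which activates WNT signalling. Tbxt 7 d cells (3 libraries) were sorted as GFP-positive, kept in FGF/CHIR for 7 d and sorted again as negative for both reporters. Cells first sorted as mCherry-positive spent 7 d in FGF/CHIR and were then collected as double negative (FGF/CHIR DN 7 d, 1 library) or mCherry-positive (FGF/CHIR Sox2+ 7 d, 1 library). The same was done in FGF alone (FGF DN 7 d, 1 library, and FGF Sox2+ 7 d, 2 libraries). Tbxt 48 h cells (2 libraries, GFP-positive) and Sox2 48 h cells (2 libraries, mCherry-positive) were sorted after NMPs had spent 48 h in FGF/CHIR. NMPs (3 libraries) were positive for both reporters. All cells derive from 1 line, and the labels do not say whether the libraries of a group are separate cultures, so p-values measure the spread between these libraries, which may be technical.

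The respiratory chain sits in the inner mitochondrial membrane. Complex I (NADH dehydrogenase) and complex II (succinate dehydrogenase) pass electrons to ubiquinone, complex III passes them on to cytochrome c, and complex IV (cytochrome c oxidase) hands them to oxygen. Complexes I, III and IV pump protons, and complex V, the ATP synthase, uses the gradient to make ATP. Complex II is built from nuclear genes alone, whereas the other complexes combine nuclear subunits made in the cytosol with subunits made on mitochondrial ribosomes. Pluripotent and early embryonic cells are known for their strong use of glycolysis.

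Promoters of nuclear respiratory genes are known for binding sites of ETS factors (GABP), NRF1, YY1 and SP1. The promoter windows of 5 members are shown because the results turn on them: Uqcr11, Cox5a and Cox7a2 are widely expressed subunits that were low in Tbxt 7 d cells, and Cox6b2 and Cox7a1 are tissue-restricted subunits of complex IV. Sequences are from RefSeq on GRCm38.p6, run 5′ to 3′ on the gene's strand and cover 250 bases before to 50 after the start. Capitals mark exact matches, on either strand, to the ETS core CGGAAG, the NRF1 core GCATGCG, the YY1 core AAGATGGC or the SP1 box GGGCGG. The windows are chr10:80406772-80407071 (minus strand, Uqcr11), chr9:57520982-57521281 (plus strand, Cox5a), chr9:79759804-79760103 (minus strand, Cox7a2), chr7:4753045-4753344 (minus strand, Cox6b2) and chr7:30183921-30184220 (plus strand, Cox7a1).
Uqcr11: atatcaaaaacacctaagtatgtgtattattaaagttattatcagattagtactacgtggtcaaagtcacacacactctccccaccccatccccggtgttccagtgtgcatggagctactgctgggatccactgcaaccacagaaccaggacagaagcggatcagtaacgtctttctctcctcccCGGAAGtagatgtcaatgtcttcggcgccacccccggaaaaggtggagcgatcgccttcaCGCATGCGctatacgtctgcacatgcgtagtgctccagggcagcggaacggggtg
Cox5a: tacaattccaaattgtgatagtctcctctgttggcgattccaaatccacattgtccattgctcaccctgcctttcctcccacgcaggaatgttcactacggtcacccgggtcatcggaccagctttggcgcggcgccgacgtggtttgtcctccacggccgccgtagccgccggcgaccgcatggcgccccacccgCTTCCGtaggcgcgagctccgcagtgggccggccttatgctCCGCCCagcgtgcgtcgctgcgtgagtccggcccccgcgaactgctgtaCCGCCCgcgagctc
Cox7a2: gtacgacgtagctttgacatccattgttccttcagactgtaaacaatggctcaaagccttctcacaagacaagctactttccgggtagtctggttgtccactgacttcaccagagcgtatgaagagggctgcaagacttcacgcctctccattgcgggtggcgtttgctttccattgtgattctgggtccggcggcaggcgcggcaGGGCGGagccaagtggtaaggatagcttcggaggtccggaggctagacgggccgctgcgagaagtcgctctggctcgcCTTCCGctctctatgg
Cox6b2: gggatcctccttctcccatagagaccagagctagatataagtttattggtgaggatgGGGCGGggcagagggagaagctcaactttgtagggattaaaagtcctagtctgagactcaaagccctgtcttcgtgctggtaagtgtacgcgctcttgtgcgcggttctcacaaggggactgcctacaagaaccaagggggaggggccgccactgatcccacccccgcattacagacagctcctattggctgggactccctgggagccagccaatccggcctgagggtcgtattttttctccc
Cox7a1: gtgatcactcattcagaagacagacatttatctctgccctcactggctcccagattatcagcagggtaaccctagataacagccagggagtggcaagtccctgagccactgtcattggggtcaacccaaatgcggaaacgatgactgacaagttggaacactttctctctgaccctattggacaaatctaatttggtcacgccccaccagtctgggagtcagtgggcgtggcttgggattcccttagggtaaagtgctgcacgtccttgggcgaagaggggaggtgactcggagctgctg
The Uqcr11 window held 1 ETS core and 2 overlapping NRF1 matches, 1 on each strand. The Cox5a window held 1 ETS core and 2 SP1 boxes, the Cox7a2 window 1 of each, the Cox6b2 window 1 SP1 box and the Cox7a1 window none of the 4 motifs. The window of Ndufs6, another subunit gene that was low in Tbxt 7 d cells, was also read but is not printed. It held 1 YY1 core and none of the other motifs. Of the 87 nuclear genes, 55 matched the promoter table by symbol, with 57 windows. The ETS core was in 20 of these 57 windows (35.1%, against 16.9% of all 32851 windows of that length), the YY1 core in 8 (14%, against 2.75%), the NRF1 core in 7 (12.3%, against 3.58%) and the SP1 box in 24 (42.1%, against 35.7%). A match of letters describes the window and is no evidence of binding.

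Levels are in counts per 1000000 reads (CPM). Depth was 3.43 to 9.88 M reads (M, 1000000 reads) in 14 libraries and 0.799 M in replicate 2 of FGF Sox2+ 7 d, where 3 reads make 3.76 CPM. Sox2 was 0 to 1.46 CPM in Tbxt 7 d cells, against 164 to 241 CPM in NMPs, and Tbxt was 0.396 to 2.11 CPM in Tbxt 7 d cells, against 284 to 445 CPM in NMPs. The 5 mesenchyme markers (Pdgfra, Twist1, Col1a1, Col3a1, Prrx1) were all detected in Tbxt 7 d cells and summed to 5992 to 6909 CPM there, against 36.9 to 53.8 CPM in NMPs. Markers of striated muscle and heart summed to at most 7.02 CPM in any library, with Myog at 0 in all 15. Malat1 was 1126 to 3006 CPM in Tbxt 7 d libraries, against 248 to 694 CPM in the others, and the mitochondrial ribosomal RNAs summed to 26826 to 31110 CPM in Tbxt 7 d libraries, against 8291 to 23990 CPM. These 3 measures moved with every difference of Tbxt 7 d cells given here, and their part in it was not tested. In bulk RNA, fewer cells of a type and less RNA per cell cannot be told apart.

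Summed over the 87 nuclear genes, transcripts had the lowest group mean in Tbxt 7 d cells, while the sum over the 13 mitochondrial-genome genes was high there. The nuclear sum was 16159.9, 18617 and 16017 CPM in Tbxt 7 d libraries, against 19615 and 18883 CPM in Tbxt 48 h libraries and 19174 and 18780.2 CPM in FGF Sox2+ 7 d libraries. NMPs had 20916, 19669 and 21102 CPM. Replicate 2 of Tbxt 7 d overlapped other groups, since FGF/CHIR Sox2+ 7 d had 17892 CPM and 1 Sox2 48 h library had 18245 CPM. The mitochondrial sum was 38566, 39359 and 35424 CPM in Tbxt 7 d libraries, against 31601 and 33258 CPM in Tbxt 48 h libraries. In NMPs it was 32024, 31981 and 28794 CPM, and the FGF/CHIR DN 7 d library, also double negative, had 38999 CPM. These sums separate the groups only in part. The ratio of the mitochondrial to the nuclear sum was 2.39, 2.11 and 2.21 in Tbxt 7 d libraries, against 1.36 to 1.87 in the other 12 libraries, with no overlap.

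**Figure D1:**
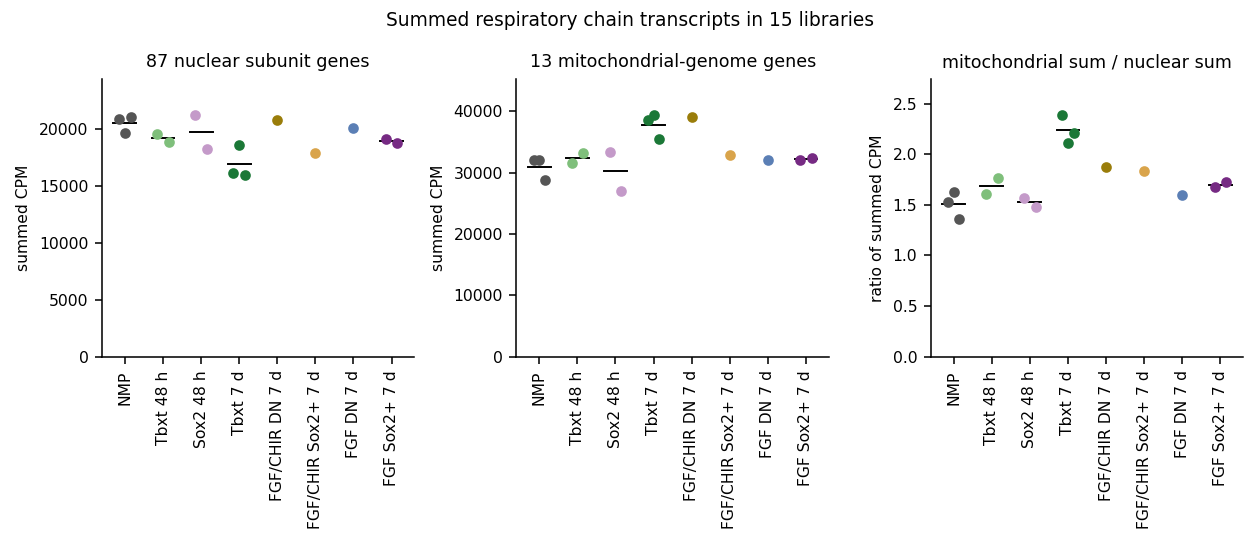
Summed CPM of the 87 nuclear subunit genes, of the 13 mitochondrial-genome genes and their ratio in each of 15 libraries, by sorted group; points are libraries and bars are group means. The 3 Tbxt 7 d libraries have the highest ratios, 2.11 to 2.39.

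By complex, the nuclear sums of Tbxt 7 d cells were below those of NMPs for complexes I, III, IV and V and above them for complex II. Complex III summed to 1569 ± 114 CPM in Tbxt 7 d cells and 2178 ± 65.7 CPM in NMPs (SD, n = 3 each). Complex IV summed to 3665 ± 382 CPM in Tbxt 7 d cells and 4713 ± 199 CPM in NMPs. In complex I the sums were 5643 ± 429 CPM in Tbxt 7 d cells and 6622 ± 254 CPM in NMPs, and in complex V they were 5588 ± 549 CPM in Tbxt 7 d cells and 6625 ± 256 CPM in NMPs. The complex I sums include Ndufa4, with means of 1137 CPM in Tbxt 7 d cells and 1478 CPM in NMPs. Ndufa4 is known as a complex IV subunit but is counted with complex I by its symbol throughout. Complex II, the smallest, summed to 465 ± 16.5 CPM in Tbxt 7 d cells and 424 ± 24.4 CPM in NMPs. The libraries of the 2 groups did not overlap for any complex, with complex II the closest. Sums were given no test.

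The comparison of Tbxt 7 d cells with NMPs asks how the double-negative derivative of the Tbxt-positive cells differs from its progenitor. Of the 82 nuclear genes tested, 7 rose and 31 fell in Tbxt 7 d cells at an adjusted p under 0.05 (limma on log2(CPM + 1), Benjamini-Hochberg adjustment over 12943 genes). Of all genes tested, 62.7% were called, 33.0% higher and 29.7% lower, and of the nuclear genes 46.3% were called. The median log2 fold change was −0.22 for the nuclear genes, against 0.07 for all genes. Of the 13 mitochondrial-genome genes, 7 rose and 1 fell, with a median of 0.30. Without replicate 3 of NMP, 4 nuclear genes rose and 19 fell, the lowest count of the 12 fits that leave out 1 library.

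From 48 h to 7 d of the Tbxt lineage, 12 nuclear genes rose and 22 fell in Tbxt 7 d cells (limma, adjusted p under 0.05), where 54.2% of all genes were called, 30.7% higher and 23.5% lower. The median was −0.06 for the nuclear genes, against 0.09 for all genes. Under median-of-ratios scaling 7 rose and 25 fell, and without replicate 2 of Tbxt 48 h 5 rose and 12 fell. Against FGF Sox2+ 7 d cells, 7 nuclear genes rose and 19 fell in Tbxt 7 d cells, where 47.6% of all genes were called, 21.1% higher and 26.5% lower. On simulated data this fit gave more false calls than the threshold allows in both comparisons with FGF Sox2+ 7 d cells, whose replicate 2 is shallow, and the share came near the threshold once libraries were weighted by depth. The simulation gave all genes the same spread, as the weights assume, so it cannot show how the weights act on the real libraries. With these weights, chosen after seeing the data, 4 nuclear genes rose and 18 fell. The medians were −0.15 for the nuclear genes and −0.07 for all genes, and lineage and medium differ together in this pair and cannot be told apart. Here 8 rose and 12 fell under median-of-ratios scaling. The counts were 2 and 10 without replicate 1 of FGF Sox2+ 7 d, 2 and 12 without its replicate 2, and 5 and 11 without replicate 3 of Tbxt 7 d. The 3 comparisons share the Tbxt 7 d libraries.

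**Figure D2:**
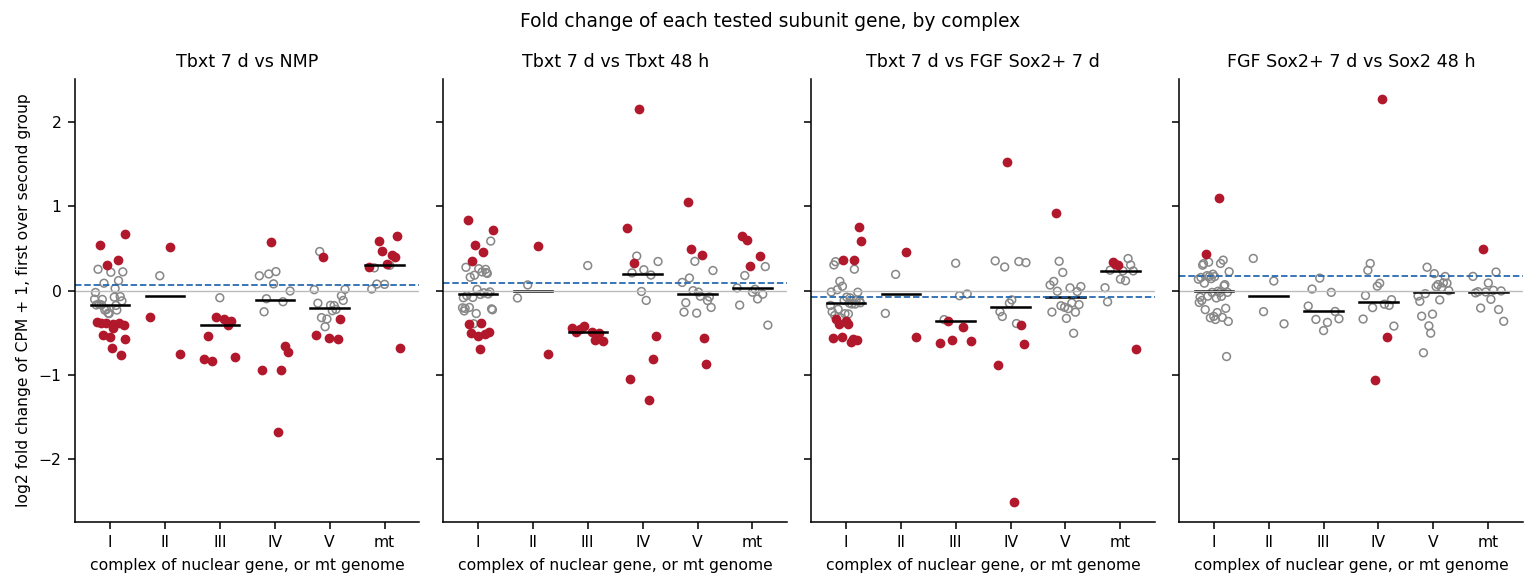
Log2 fold change of CPM + 1 for each tested subunit gene (points), by complex of the nuclear genes and for the mitochondrial genome, in 4 comparisons named first group over second; filled points have an adjusted p under 0.05, black bars are medians of the set, and the dashed line is the median of all genes tested. Complex III has a median of −0.41 in Tbxt 7 d cells against NMPs, while the mitochondrial-genome genes have a median of 0.30.

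In complex I, of 37 tested genes, 4 rose and 12 fell in Tbxt 7 d cells against NMPs, and 7 fell without replicate 1 and 6 without replicate 3 of NMP. In the Tbxt lineage, 5 rose and 7 fell in Tbxt 7 d cells against Tbxt 48 h cells, with 2 and 4 without replicate 2 of Tbxt 48 h, 3 that rose without replicate 2 and 4 that fell without replicate 3 of Tbxt 7 d. Of all genes, 62.7% were called against NMPs and 54.2% against Tbxt 48 h cells. Fold changes of single genes are given with their SE. Ndufs6, an accessory subunit of the matrix arm, had 147, 168 and 146 CPM in Tbxt 7 d cells, against 259, 266 and 260.4 CPM in NMPs (log2 fold change −0.77 ± 0.10, limma adjusted p = 3.63e-05). Ndufb6, an accessory subunit of the membrane arm, had 186, 202 and 166 CPM in Tbxt 7 d cells, against 285, 286 and 315 CPM in NMPs (log2 fold change −0.68 ± 0.12, limma adjusted p = 0.000301). For both genes the groups did not overlap, and the calls held in all 20 alternatives. Ndufv3, an accessory subunit of the NADH-oxidising tip, moved the other way, with 106, 129.7 and 129 CPM in Tbxt 7 d cells, against 78.8, 74.5 and 73.7 CPM in NMPs (log2 fold change 0.67 ± 0.14, limma adjusted p = 0.00126).

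Ndufa3, a membrane-arm accessory subunit, had 100.5, 91.9 and 96.9 CPM in Tbxt 7 d cells, against 62.8 and 45.2 CPM in Tbxt 48 h cells (log2 fold change 0.84 ± 0.16, limma adjusted p = 0.000691). It also rose against NMPs (log2 fold change 0.54 ± 0.14, limma adjusted p = 0.00531), and no alternative ended either call. Ndufa4, named for complex I but known as a complex IV subunit, fell against NMPs by 0.38 ± 0.12 on the log2 scale (limma adjusted p = 0.0119), and lost its call without replicate 3 of NMP and without replicate 3 of Tbxt 7 d, with adjusted p-values up to 0.0618. Against FGF Sox2+ 7 d cells 4 complex I genes rose and 9 fell in Tbxt 7 d cells, where 47.6% of all genes were called. These counts were 1 and 4 without replicate 1 and 0 and 1 without replicate 2 of FGF Sox2+ 7 d. Leaving out replicate 3 of NMP or replicate 2 of Tbxt 7 d gave 2 and 1 that rose, and leaving out replicate 3 of Tbxt 7 d gave 4 that fell. Ndufs8, a core subunit with iron-sulfur clusters, and Ndufb11, a membrane-arm subunit, rose there by 0.76 ± 0.28 and 0.37 ± 0.14 (limma adjusted p = 0.0403 and 0.0396), and 8 and 9 of 20 alternatives ended those calls.

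Other members called against FGF Sox2+ 7 d cells were Ndufv3, Sdhc and Atp5f1d, which rose by 0.58 ± 0.16, 0.46 ± 0.14 and 0.92 ± 0.32 on the log2 scale (limma adjusted p = 0.00931, 0.016 and 0.0316). Those that fell include Ndufc1, Cyc1, Cox7c and Sdhd, with log2 fold changes of −0.61 ± 0.16, −0.62 ± 0.16, −0.63 ± 0.12 and −0.56 ± 0.21 (limma adjusted p = 0.00755, 0.00604, 0.000901 and 0.0404). Of these 7 calls, those of Cyc1 and Cox7c held in all 20 alternatives. The calls of Ndufc1 and Ndufv3 were lost without replicate 2 of FGF Sox2+ 7 d and that of Sdhc without its replicate 1, while Atp5f1d and Sdhd lost theirs in 6 and 9 alternatives.

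In complex II the membrane anchors Sdhc and Sdhd moved apart. Sdhc had 226, 244 and 238 CPM in Tbxt 7 d cells, against 185, 142 and 170.3 CPM in NMPs (log2 fold change 0.51 ± 0.13, limma adjusted p = 0.00311). Sdhd had 21.0, 28.1 and 22.6 CPM in Tbxt 7 d cells, against 47.4, 37.1 and 38.1 CPM in NMPs (log2 fold change −0.75 ± 0.18, limma adjusted p = 0.00322). Neither gene overlapped between the groups, and both calls held in all 20 alternatives. Against Tbxt 48 h cells Sdhc rose by 0.53 ± 0.14 on the log2 scale (limma adjusted p = 0.00603) and Sdhd fell by 0.75 ± 0.21 on the log2 scale (limma adjusted p = 0.00794), with the call of Sdhd lost without replicate 2 of Tbxt 48 h (adjusted p = 0.122). Sdha, the flavoprotein that oxidises succinate, fell against NMPs by 0.31 ± 0.12 on the log2 scale (limma adjusted p = 0.0444), which 13 alternatives ended. Sdhb, the iron-sulfur subunit, had 90.6, 117 and 101 CPM in Tbxt 7 d cells, against 101, 80.7 and 90.7 CPM in NMPs and was not called, so the 4 members of the complex did not move together.

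In complex III all 9 nuclear genes had a negative fold change in Tbxt 7 d cells against NMPs, and 8 fell, with a median of −0.41. Against Tbxt 48 h cells 8 fell (median −0.49) and against FGF Sox2+ 7 d cells 5 fell (median −0.36). Of all genes, 29.7, 23.5 and 26.5% were called lower in these 3 comparisons. No member rose in any of the 3 comparisons, also under median-of-ratios scaling and with CPM taken outside the mitochondrial genome. Uqcr11, a small accessory subunit, had 139, 125 and 126 CPM in Tbxt 7 d cells, against 239, 238 and 218 CPM in NMPs (log2 fold change −0.83 ± 0.11, limma adjusted p = 2.22e-05). All 3 Tbxt 7 d libraries were below the other 12. Cyc1, which encodes cytochrome c1, the haem protein that hands electrons to cytochrome c, had 74.8, 75.0 and 77.4 CPM in Tbxt 7 d cells, against 172, 119 and 118 CPM in NMPs (log2 fold change −0.82 ± 0.14, limma adjusted p = 0.000252). The groups did not overlap, with replicate 1 of NMP well above the other NMP libraries. Uqcrq, an accessory subunit that sits beside cytochrome b, had 135, 138 and 113 CPM in Tbxt 7 d cells, against 243, 205 and 222 CPM in NMPs (log2 fold change −0.79 ± 0.13, limma adjusted p = 0.000223).

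Uqcrfs1, the Rieske iron-sulfur protein, had 117, 131 and 126 CPM in Tbxt 7 d cells, against 175 and 201 CPM in Tbxt 48 h cells (log2 fold change −0.59 ± 0.12, limma adjusted p = 0.00105). Uqcrb, a small accessory subunit, had 199, 199 and 182 CPM in Tbxt 7 d cells, against 284 and 299 CPM in FGF Sox2+ 7 d cells (log2 fold change −0.59 ± 0.11, limma adjusted p = 0.000826). Uqcrc1, a core protein, was the member that was not called against NMPs or Tbxt 48 h cells. It had 104, 118 and 122 CPM in Tbxt 7 d cells, against 104 and 82.5 CPM in Tbxt 48 h cells, a log2 fold change of 0.30. The number of complex III genes that fell against NMPs was 5 without replicate 3 of NMP and 4 without replicate 3 of Tbxt 7 d. Against Tbxt 48 h cells it was 5 without replicate 1 and 3 without replicate 2 of Tbxt 48 h, and against FGF Sox2+ 7 d cells it was 3 without replicate 1 of that group.

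In complex IV, of 14 tested genes, 1 rose and 5 fell in Tbxt 7 d cells against NMPs, and 3 rose and 4 fell against Tbxt 48 h cells, where 1 rose without replicate 2 of Tbxt 48 h. Of all genes, 62.7% were called against NMPs and 54.2% against Tbxt 48 h cells. Cox5a, a subunit on the matrix side, had 391, 413 and 371 CPM in Tbxt 7 d cells, against 808 and 814 CPM in Tbxt 48 h cells and 767 and 682 CPM in FGF Sox2+ 7 d cells. NMPs had 772, 724 and 771 CPM. All 12 libraries outside the Tbxt 7 d group lay between 634 and 814 CPM, so the Tbxt 7 d libraries stood below the whole series. The log2 fold change was −0.95 ± 0.09 against NMPs (limma adjusted p = 2.41e-06), −1.05 ± 0.10 against Tbxt 48 h cells (limma adjusted p = 4.16e-06) and −0.88 ± 0.10 against FGF Sox2+ 7 d cells (limma adjusted p = 2.28e-05). None of the 20 alternatives ended these calls.

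Cox7a2, the form of subunit VIIa found in most tissues, had 296, 411 and 313 CPM in Tbxt 7 d cells, against 864 and 800.1 CPM in Tbxt 48 h cells (log2 fold change −1.30 ± 0.16, limma adjusted p = 2.21e-05). NMPs had 565, 700.2 and 693 CPM, and FGF Sox2+ 7 d libraries had 458 and 426 CPM. Both Tbxt 48 h libraries were above the other 13. They were called higher than Sox2 48 h cells, which had 556 and 439 CPM (log2 fold change 0.75 ± 0.17, limma adjusted p = 0.0306), and 6 of 20 alternatives ended that call, with adjusted p-values up to 0.311. Cox7c, a small subunit, had 381, 441 and 365 CPM in Tbxt 7 d cells, against 700.4, 609 and 665 CPM in NMPs (log2 fold change −0.73 ± 0.11, limma adjusted p = 6.72e-05). Cox7b, another small subunit, had 295, 352 and 284 CPM in Tbxt 7 d cells, against 519 and 567 CPM in Tbxt 48 h cells (log2 fold change −0.81 ± 0.15, limma adjusted p = 0.00051). In both genes the groups did not overlap.

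Cox6b2, the form of subunit VIb known from testis, moved in the opposite sense. It had 74.2, 82.4 and 73.2 CPM in Tbxt 7 d cells, against 23.4 and 11.5 CPM in Tbxt 48 h cells and 28.2 and 23.8 CPM in FGF Sox2+ 7 d cells. NMPs had 50.9, 52.7 and 49.2 CPM, and Sox2 48 h cells had 66.6 and 45.5 CPM. The Tbxt 7 d libraries were above all others and the Tbxt 48 h libraries below all others. The log2 fold change was 2.15 ± 0.24 for Tbxt 7 d against Tbxt 48 h cells (limma adjusted p = 1.19e-05) and 1.53 ± 0.24 against FGF Sox2+ 7 d cells (limma adjusted p = 0.000237). Tbxt 48 h cells were lower than NMPs (log2 fold change −1.57 ± 0.24, limma adjusted p = 0.000812) and than Sox2 48 h cells (log2 fold change −1.68 ± 0.27, limma adjusted p = 0.00335). These 4 calls held in all 20 alternatives. Against NMPs the fold change of Tbxt 7 d cells was 0.58 ± 0.22 (limma adjusted p = 0.0338), which 7 alternatives ended, among them those without any 1 of the NMP libraries or without replicate 2 or 3 of Tbxt 7 d. Cox6b1, the widely expressed form, had 303, 397 and 345 CPM in Tbxt 7 d cells, against 303 and 224 CPM in Tbxt 48 h cells (log2 fold change 0.41 ± 0.17, limma adjusted p = 0.055), which missed the threshold.

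Cox7a1, the form of subunit VIIa of heart and skeletal muscle, was near the limit of detection. It had 0.291, 0.594 and 0.527 CPM in Tbxt 7 d cells, against 13.6 and 3.76 CPM in FGF Sox2+ 7 d cells, and NMPs had 3.76, 4.99 and 2.67 CPM. These are 6 reads in the 3 Tbxt 7 d libraries together, against 67 reads in the 2 FGF Sox2+ 7 d libraries, of which replicate 2 gave 3. Per read sequenced, the ratio of Tbxt 7 d to FGF Sox2+ 7 d cells was 0.0402 (exact 95% interval 0.0142 to 0.0921) and that of Tbxt 7 d cells to NMPs 0.133 (0.0473 to 0.301). For FGF Sox2+ 7 d over Sox2 48 h cells it was 16.9 (7.37 to 47.7), and for Tbxt 48 h cells over NMPs 0.155 (0.0684 to 0.308). The intervals cover counting error only. The other double-negative libraries also had reads, at 8.08 CPM in FGF/CHIR DN 7 d and 13.6 CPM in FGF DN 7 d. Cox7a1 passed the filter on low values only through these libraries and replicate 1 of FGF Sox2+ 7 d.

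Of the other isoforms of complex IV, Cox4i1, the main form of subunit IV, had 453, 602 and 532 CPM in Tbxt 7 d cells, against 386 and 254 CPM in Tbxt 48 h cells (log2 fold change 0.75 ± 0.20, limma adjusted p = 0.00595), a call lost without replicate 2 of Tbxt 48 h (adjusted p = 0.117). Cox6a1 rose there by 0.33 ± 0.13 on the log2 scale (limma adjusted p = 0.04), which 9 alternatives ended. Cox8a had a log2 fold change of 0.34 against Tbxt 48 h cells and was not called. Cox7a2l, which helps to join complexes III and IV, was not called in any comparison of Tbxt 7 d cells. Members that did not pass the filter on low values were Cox4i2, Cox6a2, Cox7b2, Cox8b and Cox8c. The highest of them was Cox4i2, the lung and hypoxia form of subunit IV, at 1.2 CPM in a Tbxt 7 d library.

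**Figure D3:**
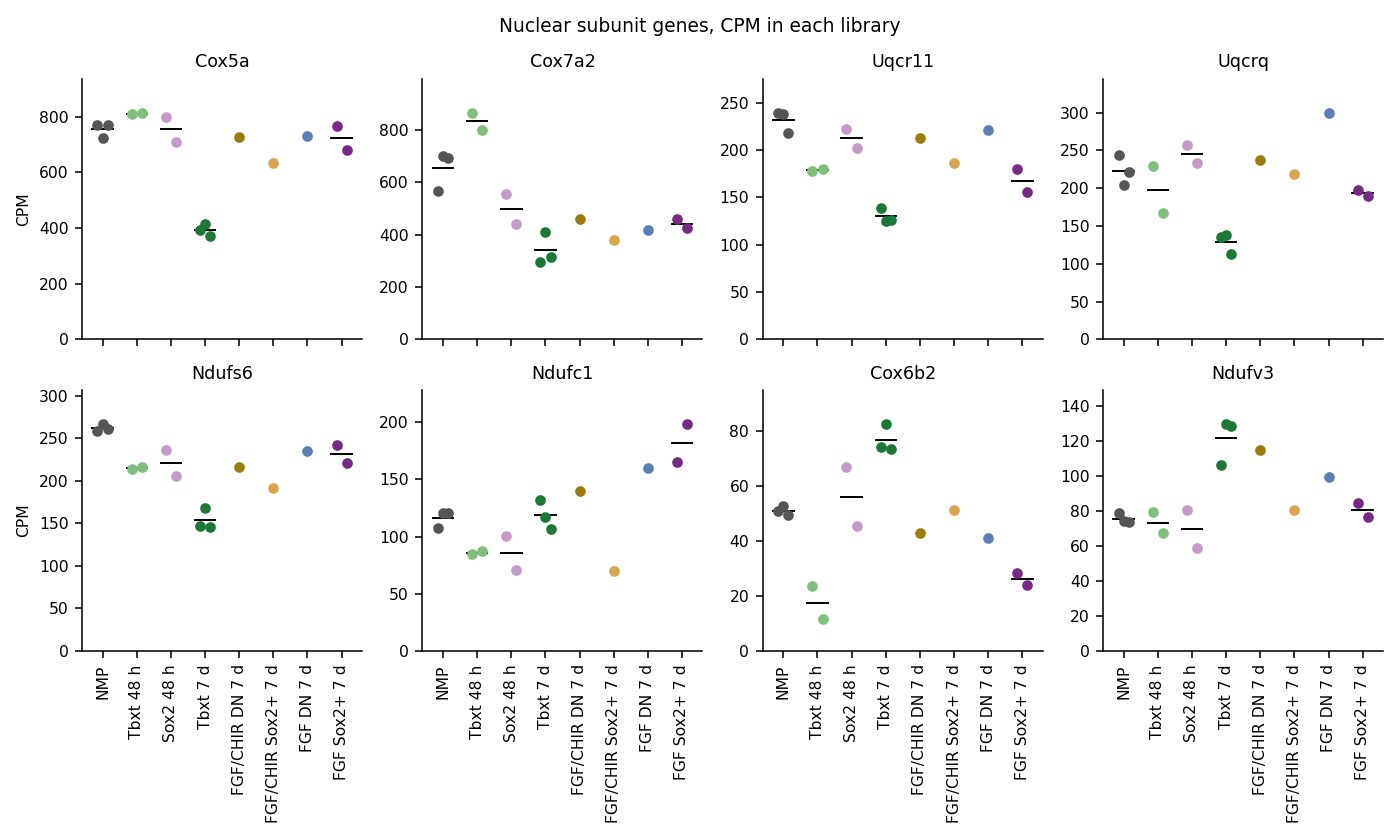
CPM of 8 nuclear subunit genes in each of 15 libraries, by sorted group; points are libraries and bars are group means. Cox5a, Uqcr11, Uqcrq and Ndufs6 are lowest in the 3 Tbxt 7 d libraries, Cox6b2 is lowest in Tbxt 48 h cells and highest in Tbxt 7 d cells, and Ndufc1 is highest in FGF Sox2+ 7 d cells.

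Of the 18 complex V genes, 1 rose and 4 fell in Tbxt 7 d cells against NMPs, where 62.7% of all genes were called. Of the complex V genes, 2 fell without replicate 3 of NMP or without replicate 3 of Tbxt 7 d. None rose without replicate 2 or 3 of NMP or replicate 2 of Tbxt 7 d, and 2 rose without replicate 1 of either group. Atp5mc3, 1 of 3 genes for the proton-carrying c ring, had 696, 801 and 644 CPM in Tbxt 7 d cells, against 1070.0, 1006 and 1093 CPM in NMPs (log2 fold change −0.57 ± 0.10, limma adjusted p = 0.000245). Its sister genes Atp5mc1 and Atp5mc2 had log2 fold changes of −0.43 and −0.34 and were not called. The gene that rose was Atp5if1, the inhibitor of ATP hydrolysis, with 263, 297 and 231 CPM in Tbxt 7 d cells, against 231, 179 and 191 CPM in NMPs (log2 fold change 0.39 ± 0.14, limma adjusted p = 0.028), and 4 alternatives ended that call.

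Of complex V, 3 genes rose and 2 fell in Tbxt 7 d cells against Tbxt 48 h cells, where 54.2% of all genes were called. The complex V counts were 1 and 1 without either replicate of Tbxt 48 h, 1 and 4 without replicate 2 of Tbxt 7 d, and 3 and 1 without its replicate 3. Atp5mk, a small membrane subunit that also fell against NMPs by 0.57 ± 0.18 on the log2 scale (limma adjusted p = 0.0159), had 254, 316 and 204 CPM in Tbxt 7 d cells, against 426 and 509 CPM in Tbxt 48 h cells (log2 fold change −0.87 ± 0.21, limma adjusted p = 0.00317). Atp5f1d, the delta subunit of the central stalk, had 128, 209 and 216 CPM in Tbxt 7 d cells, against 114 and 65.3 CPM in Tbxt 48 h cells (log2 fold change 1.05 ± 0.32, limma adjusted p = 0.0151). The limma call was lost without replicate 2 of Tbxt 48 h, with an adjusted p of 0.181.

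Against NMPs, 62.7% of all genes were called in Tbxt 7 d cells, 33.0% higher and 29.7% lower. Of the mitochondrial-genome genes, the 7 that rose there include core subunits of complexes I, III, IV and V. There were 5 such genes and none that fell without replicate 3 of NMP, 4 without replicate 1 of Tbxt 7 d and 5 without its replicate 2. mt-Co3, a core subunit of complex IV, had 6801, 6823 and 6680.2 CPM in Tbxt 7 d cells, against 4397 and 4519 CPM in Tbxt 48 h cells and 5345 and 5542 CPM in FGF Sox2+ 7 d cells. NMPs had 4555, 4497 and 4398 CPM. All Tbxt 7 d libraries were above the other 12, the nearest being FGF/CHIR DN 7 d with 6565 CPM. The log2 fold change was 0.59 ± 0.09 against NMPs (limma adjusted p = 8.13e-05), 0.60 ± 0.10 against Tbxt 48 h cells (limma adjusted p = 0.000246) and 0.31 ± 0.10 against FGF Sox2+ 7 d cells (limma adjusted p = 0.0196). The last of these was lost without either FGF Sox2+ 7 d library, with adjusted p-values up to 0.111.

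mt-Co3 made up 17.6, 17.3 and 18.9% of the mitochondrial sum in Tbxt 7 d libraries, against 14.2, 14.1 and 15.3% in NMPs. Its share was 16.7 and 17.1% in FGF Sox2+ 7 d cells, against 13.2 and 12.7% in Sox2 48 h cells, but 13.7% in the FGF/CHIR Sox2+ 7 d library, below all NMPs. mt-Cytb, the cytochrome b of complex III, had 3934, 3851 and 3611 CPM in Tbxt 7 d cells, against 2848, 2803 and 2604 CPM in NMPs (log2 fold change 0.47 ± 0.09, limma adjusted p = 0.000505). It rose in the libraries in which 8 of the 9 nuclear subunits of complex III fell. mt-Nd5 of complex I had 432, 416 and 377 CPM in Tbxt 7 d cells, against 228, 271 and 284 CPM in NMPs (log2 fold change 0.65 ± 0.12, limma adjusted p = 0.000521). mt-Nd2, also of complex I, rose by 0.32 ± 0.10 on the log2 scale (limma adjusted p = 0.0105). These genes kept their calls against NMPs in all 20 alternatives, as did mt-Co3.

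mt-Nd4 and mt-Nd4l, which belong to complex I, and mt-Atp6 of complex V rose against NMPs by 0.42 ± 0.14, 0.39 ± 0.14 and 0.28 ± 0.11 on the log2 scale (limma adjusted p = 0.017, 0.0259 and 0.0484), and 3, 2 and 11 of 20 alternatives ended the calls. The log2 fold change was 0.30 for mt-Nd3, 0.27 for mt-Co1, 0.08 for mt-Co2, 0.07 for mt-Nd1 and 0.02 for mt-Atp8, and none was called. mt-Nd4l overlaps mt-Nd4 and mt-Atp8 overlaps mt-Atp6, so how reads were divided within these pairs is uncertain. mt-Nd6 was the member that fell. It is the only protein-coding gene read from the other strand of the mitochondrial genome, and in human cells its mRNA lacks a poly(A) tail, while these libraries were primed with oligo-dT. mt-Nd6 had 22.0, 22.2 and 30.0 CPM in Tbxt 7 d cells, against 45.6, 31.0 and 45.2 CPM in NMPs (log2 fold change −0.69 ± 0.24, limma adjusted p = 0.0235), and 4 alternatives ended the call. Its groups came close without overlap, and because strand handling is not given in the sources used here, its reads cannot be told apart from antisense reads of its neighbours.

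Against Tbxt 48 h cells mt-Co1, mt-Co3, mt-Cytb and mt-Nd4 rose in Tbxt 7 d cells and none fell, where 54.2% of all genes were called. mt-Co1, the catalytic subunit of complex IV, had 2950.2, 2523 and 2611 CPM in Tbxt 7 d cells, against 1860.3 and 1580.1 CPM in Tbxt 48 h cells (log2 fold change 0.65 ± 0.15, limma adjusted p = 0.00284). Of these 4 calls, 2 were left without replicate 1 of Tbxt 48 h, replicate 1 of Tbxt 7 d or replicate 2 of Tbxt 7 d, and 2 under median-of-ratios scaling. The median of the 13 genes was 0.03 here and −0.05 under that scaling, so the set as a whole had no stable direction. Against FGF Sox2+ 7 d cells 47.6% of all genes were called. In that comparison mt-Co2, mt-Co3 and mt-Cytb rose and mt-Nd6 fell, with 3 and none when libraries were weighted by depth. No mitochondrial-genome gene was called there without replicate 1 of FGF Sox2+ 7 d, 1 without its replicate 2, 2 without replicate 1 of Tbxt 7 d and 1 without its replicate 2. Under median-of-ratios scaling 5 rose and none fell, and with CPM taken outside the mitochondrial genome 4 rose and none fell.

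**Figure D4:**
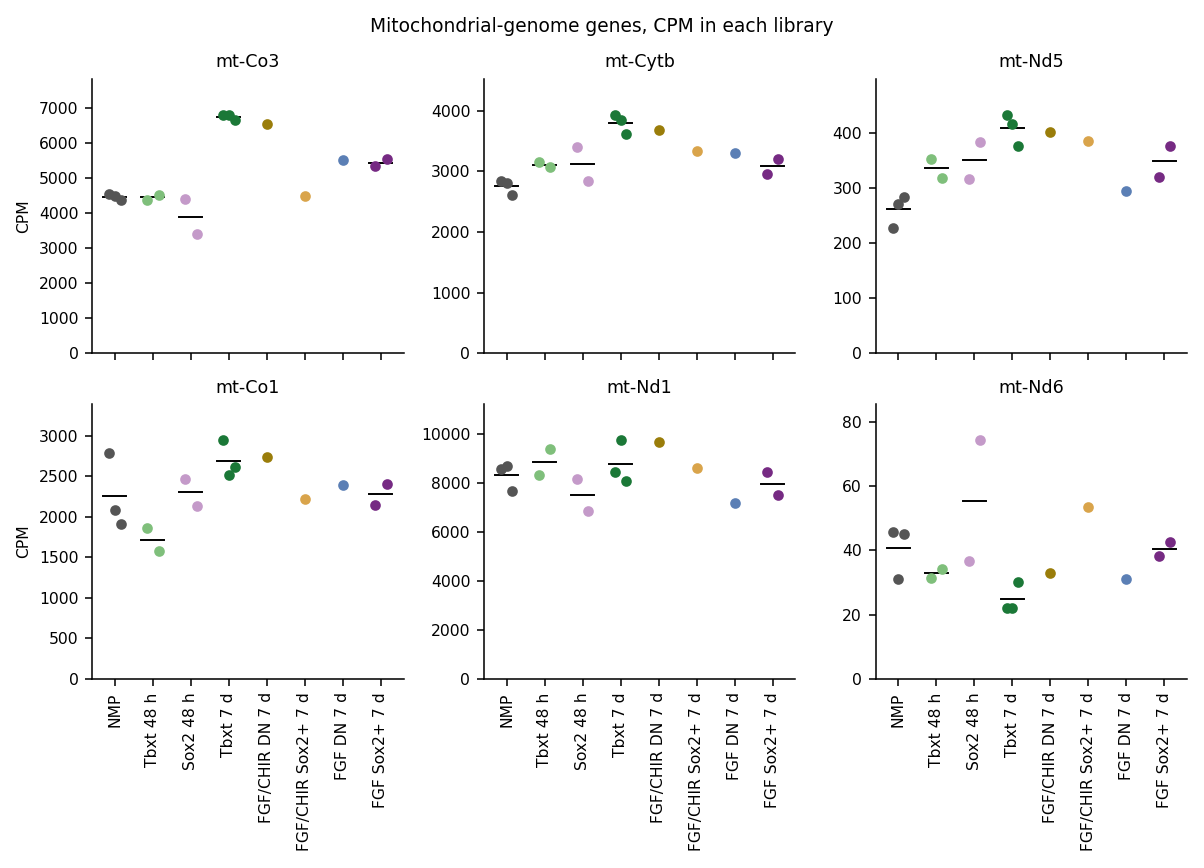
CPM of 6 mitochondrial-genome genes in each of 15 libraries, by sorted group; points are libraries and bars are group means. mt-Co3 is above all other libraries in the Tbxt 7 d group, at 6680.2 to 6823 CPM, and mt-Nd6 has its lowest group mean there.

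In the Sox2 lineage few subunit genes changed. In FGF Sox2+ 7 d against Sox2 48 h cells, 3 nuclear genes rose and 2 fell (limma, adjusted p under 0.05), where 24.7% of all genes were called, 18.2% higher and 6.51% lower, and 1 mitochondrial-genome gene rose. The counts were the same with libraries weighted by depth. Neuron markers (all 5 detected) summed to 183 to 622 CPM in FGF Sox2+ 7 d cells, against 19.7 to 33.5 CPM in Sox2 48 h cells (4 of 5, Dcx at 0). Neural progenitor markers (6 of 7 in each group) summed to 728 to 1131 CPM in FGF Sox2+ 7 d cells, against 83.5 to 125 CPM in Sox2 48 h cells. Nkx6-1 of that list went the other way, with 10.2 and 3.76 CPM in FGF Sox2+ 7 d cells, against 14.9 and 53.0 CPM in Sox2 48 h cells. Pluripotent markers (Pou5f1, Utf1, Nanog, Zfp42) summed to 45.1 to 158 CPM in FGF Sox2+ 7 d cells (all 4 detected), against 12.1 to 12.4 CPM in Sox2 48 h cells (3 of 4). The part of these markers in the differences was not tested, and the FGF Sox2+ 7 d libraries differ between themselves in the neuron and pluripotent markers. They also differ in mesenchyme markers, which summed to 65.8 and 339 CPM, and in presomitic mesoderm markers, at 68.8 and 160 CPM. The median of all genes was 0.17 and, under median-of-ratios scaling, 0.01. With that scaling 2 nuclear genes rose, 12 fell and no mitochondrial-genome gene was called, so the number and balance of the nuclear calls depend on it. The share of all genes called under that scaling is not given here. Ndufc1, a small accessory subunit of complex I, had 165 and 198 CPM in FGF Sox2+ 7 d cells, against 100.1 and 70.3 CPM in Sox2 48 h cells (log2 fold change 1.10 ± 0.18, limma adjusted p = 0.000865). That rise held in all 20 alternatives. Cox7a1 also rose in all 19 alternatives that tested it. Without replicate 1 of FGF Sox2+ 7 d, however, that call rests on 3 reads there against 3 in each Sox2 48 h library. Cox7a1 passed the filter only through 7 d libraries of the Sox2 lineage, where it was high, so the kept calls are no support for its rise. mt-Co3 had 5345 and 5542 CPM in FGF Sox2+ 7 d cells, against 4399 and 3422 CPM in Sox2 48 h cells (log2 fold change 0.49 ± 0.11, limma adjusted p = 0.00643), a call lost without replicate 2 of Sox2 48 h and under median-of-ratios scaling. Cox6b2 fell by 1.06 ± 0.27 on the log2 scale (limma adjusted p = 0.0123), lost without replicate 1 of Sox2 48 h and without replicate 2 of FGF Sox2+ 7 d. Cox7a2l fell by 0.55 ± 0.16 on the log2 scale (limma adjusted p = 0.0269) and Ndufa6 rose by 0.44 ± 0.13 on the log2 scale (limma adjusted p = 0.0309), with 4 and 6 alternatives that ended the calls. The nuclear count was 3 without either Sox2 48 h library or replicate 1 of FGF Sox2+ 7 d, and 2 without its replicate 2.

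During the first 48 h few subunits moved. In Tbxt 48 h cells against NMPs, 7 nuclear genes fell and none rose (limma, adjusted p under 0.05), where 18.4% of all genes were called, 7.82% higher and 10.5% lower. The count was 2 without replicate 1 of NMP, 3 without replicate 3 of NMP and 2 without replicate 2 of Tbxt 48 h. Besides Cox6b2, Atp5mg of the membrane part of complex V fell by 0.60 ± 0.14 on the log2 scale (limma adjusted p = 0.0111) and lost its call without replicate 1 of Tbxt 48 h (adjusted p = 0.0919). Cox7a1, Ndufs4, Cox5b, Cox6a1 and Uqcr11 also fell, with log2 fold changes of −1.57, −0.59, −0.46, −0.43 and −0.37, and at least 5 alternatives ended each call. Sox2 48 h cells differed from NMPs in Ndufs4 alone, an accessory subunit of complex I, which fell by 0.59 ± 0.16 on the log2 scale (limma adjusted p = 0.0433), where 7.92% of all genes were called, 2.65% higher and 5.27% lower, and 11 alternatives ended that call. Of Tbxt 48 h against Sox2 48 h cells, Cox7a2 was higher and Cox6b2 lower, where 3.9% of all genes were called, 2.05% higher and 1.85% lower. That count was 1 without replicate 3 of NMP, replicate 2 of Sox2 48 h or replicate 2 of Tbxt 48 h.

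In none of these 48 h comparisons was a mitochondrial-genome gene called by limma. At an unadjusted p under 0.05, 4 were higher and 1 lower in Tbxt 48 h cells against NMPs, 1 was higher in Sox2 48 h cells against NMPs, and 2 were lower in Tbxt 48 h cells against Sox2 48 h cells. The share of all genes at that unadjusted threshold was not taken, so these counts cannot be set against a background. At the adjusted threshold, 1 mitochondrial-genome gene was called without replicate 3 of Tbxt 7 d in the first of these pairs and without replicate 1 of Sox2 48 h in the others.

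Whether the change from 48 h to 7 d differed between the lineages was tested as a difference of 2 changes, Tbxt-derived minus Sox2-derived, in which lineage and medium cannot be told apart. The false calls of this test were not simulated. It includes FGF Sox2+ 7 d cells, whose simulated comparisons gave more false calls than the threshold allows. Of the nuclear genes, 7 had a higher and 10 a lower change in the Tbxt lineage, where 33.6% of all genes were called, 14.2% higher and 19.4% lower, and 1 mitochondrial-genome gene had a higher change. The counts were 7 and 6 under median-of-ratios scaling. The total was 7 without replicate 2 of Sox2 48 h, 5 without replicate 2 of Tbxt 48 h, 9 without replicate 1 of FGF Sox2+ 7 d and 11 without replicate 3 of Tbxt 7 d. Cox6b2, Cox5a and Cox7a2 of complex IV kept their calls in all 20 alternatives. Cox7a1 kept its call in all 19 that tested it, but on few reads and after a filter passed only where it was high.

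The groups with 1 library have no replicate check, and their values are given as ratios of CPM + 1 past 1.5-fold. In FGF/CHIR DN 7 d, 7 nuclear genes were higher than in FGF/CHIR Sox2+ 7 d and none lower, where 14.0% of all genes were higher and 13.1% lower. They were Atp5if1, Atp5mk, Cox6c, Cox6c2, Cox7a1, Ndufc1 and Uqcr10, and of the mitochondrial-genome genes mt-Nd6 was lower. In FGF DN 7 d against FGF Sox2+ 7 d cells, Cox6a1, Cox6b2, Cox7a1 and Uqcrq were higher and none lower, where 14.7% of all genes were higher and 22.4% lower. This library also had endoderm markers at 499.8 CPM (4 of 5 above 3 reads, all but Apoa1), against at most 54.4 CPM in any other, and endothelium and blood markers at 49.5 CPM (3 of 5), against at most 6.26 CPM. Its pluripotent markers summed to 156 CPM (4 of 4), against 45.1 to 158 CPM in FGF Sox2+ 7 d cells and 141 to 213 CPM in NMPs. The part of these markers was not tested. Cox6a1 had 398 CPM in FGF DN 7 d, above the other 14 libraries, against 248 and 278 CPM in FGF Sox2+ 7 d. In FGF/CHIR Sox2+ 7 d against FGF Sox2+ 7 d cells, which differ in CHIR, 6 nuclear genes were higher and 8 lower, where 14.0% and 18.5% of all genes were. The higher were Atp5f1d, Atp5mc2, Cox6b2, Cox8a, Ndufs8 and Uqcrc1. The lower were Atp5if1, Atp5mk, Cox6c, Cox6c2, Cox7a1, Ndufa6, Ndufc1 and Ndufs4. Ndufc1 had 69.9 CPM in FGF/CHIR Sox2+ 7 d, against 165 and 198 CPM in FGF Sox2+ 7 d.

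Other genes that build or serve the chain were followed as lists, whose counts stand beside the 62.7, 54.2 and 47.6% of all genes called against NMPs, Tbxt 48 h and FGF Sox2+ 7 d cells. Of 78 tested proteins of the mitochondrial ribosome, which translates the mitochondrial mRNAs, none rose and 61 fell in Tbxt 7 d cells against NMPs (median −0.58). The comparison with Tbxt 48 h cells had 2 that rose and 47 that fell (median −0.51), and against FGF Sox2+ 7 d cells none rose and 46 fell (median −0.48), or 30 without replicate 1 of FGF Sox2+ 7 d. Mrpl12, which also binds the mitochondrial RNA polymerase, had 39.6, 41.0 and 44.2 CPM in Tbxt 7 d cells, against 149, 100.2 and 111 CPM in NMPs (log2 fold change −1.48 ± 0.15, limma adjusted p = 2.61e-06). Of 22 genes of mitochondrial DNA expression and biogenesis, 11, 10 and 13 fell in the 3 comparisons and none rose. Tfam, which packages mitochondrial DNA and starts its transcription, had 44.3, 36.0 and 38.4 CPM in Tbxt 7 d cells, against 88.0, 107 and 94.3 CPM in NMPs (log2 fold change −1.26 ± 0.13, limma adjusted p = 2.62e-06). All 3 Tbxt 7 d libraries were below the other 12 for Tfam, while their summed mitochondrial mRNAs were above those of NMPs.

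Of 10 genes of carriers and cytochrome c, 3 rose and 5 fell in Tbxt 7 d cells against NMPs. Cycs, the somatic cytochrome c that carries electrons between complexes III and IV, had 96.8, 76.3 and 62.4 CPM in Tbxt 7 d cells, against 228, 211 and 222 CPM in NMPs (log2 fold change −1.50 ± 0.14, limma adjusted p = 1.65e-06). Slc25a5, an ADP/ATP carrier of growing cells, had 161, 178 and 142 CPM in Tbxt 7 d cells, against 815, 704 and 761 CPM in NMPs (log2 fold change −2.24 ± 0.11, limma adjusted p = 8.59e-09). For both genes the Tbxt 7 d libraries were below the other 12. Slc25a4, the ADP/ATP carrier of heart and muscle, had 422, 463 and 415 CPM in Tbxt 7 d cells, against 291, 317 and 269.9 CPM in NMPs (log2 fold change 0.57 ± 0.10, limma adjusted p = 0.000317), and all libraries outside the NMP group were above the NMPs. Mpc1 and Mpc2, which form the pyruvate carrier, rose against NMPs by 1.03 ± 0.17 and 1.25 ± 0.13 on the log2 scale (limma adjusted p = 0.000164 and 4.86e-06).

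Of 43 assembly factors, 7 rose and 20 fell in Tbxt 7 d cells against NMPs, a share near that of all genes called, with 4 that rose without replicate 3 of NMP and 3 without replicate 2 of Tbxt 7 d. Ndufaf4, an assembly factor of complex I, had 27.7, 20.6 and 27.4 CPM in Tbxt 7 d cells, against 222 and 260.4 CPM in Tbxt 48 h cells (log2 fold change −3.22 ± 0.16, limma adjusted p = 1.46e-08). NMPs had 155, 152 and 172 CPM, and the 7 d libraries of the Sox2 lineage lay between 58.3 and 83.9 CPM. Cox17, a copper chaperone for complex IV, fell against NMPs by 1.20 ± 0.14 on the log2 scale (limma adjusted p = 8.68e-06), while Cox20 and Pet100, which also serve complex IV, rose by 1.00 ± 0.14 and 0.98 ± 0.18 (limma adjusted p = 5.72e-05 and 0.000405). Of 17 genes of the tricarboxylic acid cycle and pyruvate dehydrogenase, 8 fell and 1 rose in Tbxt 7 d cells against NMPs, the rise lost in 8 of the 12 fits that leave out 1 library. Idh3a of that cycle fell by 1.33 ± 0.17 on the log2 scale (limma adjusted p = 1.87e-05). Of 6 genes of uncoupling and alternative substrates, Etfdh rose and Gpd2 fell against NMPs, by 0.90 ± 0.25 and 1.13 ± 0.22 (limma adjusted p = 0.0065 and 0.00065), and both pass electrons to ubiquinone.

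**Figure D5:**
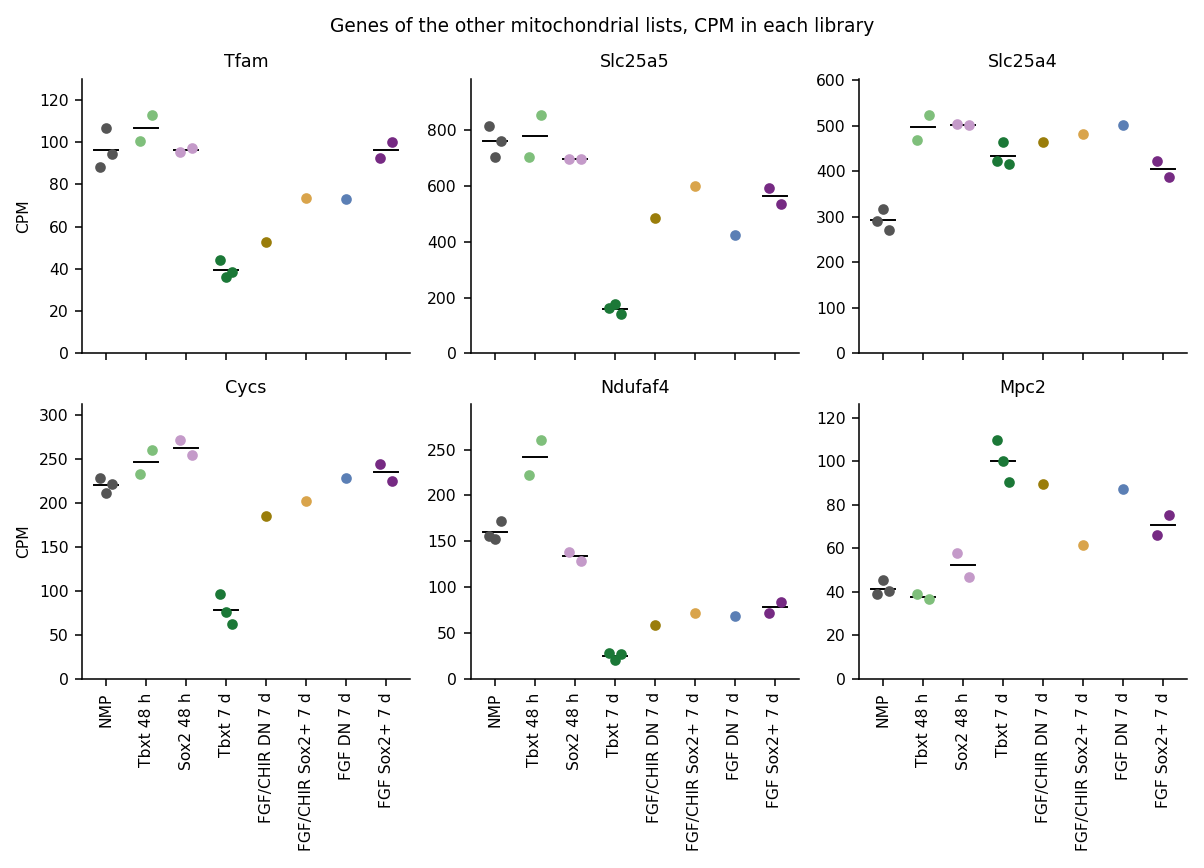
CPM of 6 genes that build or serve the respiratory chain in each of 15 libraries, by sorted group; points are libraries and bars are group means. Tfam, Slc25a5, Cycs and Ndufaf4 are lowest in the 3 Tbxt 7 d libraries, Mpc2 is highest there, and Slc25a4 is lowest in NMPs.

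Some members have listed copies that could share reads with them. Ndufs5-ps and Ndufa12-ps had 0.91 to 1.22 and 0.518 to 0.608 of the CPM of Ndufs5 and Ndufa12, Cox5b-ps had 0.216 to 0.256 of that of Cox5b, and Cox6c2, itself a member, 0.062 to 0.0871 of that of Cox6c. How reads with several locations were counted is not given in the sources used here, so the values of these genes are uncertain.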

How the data were processed

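Bulk RNA was measured in 15 libraries of 8 sorted groups; 12 libraries belong to groups of 2 or 3, and 3 groups have 1 library. Per the labels' protocols the libraries were primed with oligo-dT, carried molecular identifiers and were tagmented. The submitters' processing notes name STAR 2.7, SAMtools 1.21 and GRCm39; how reads were counted, collapsed by identifier or assigned by strand, and on which annotation, is not given in the sources used here. As their values, the authors deposited 1 table of CPM values (counts per 1000000, each column summing to 1000000) with 78409 rows, of which 21909 have no gene name and held 1.1 to 1.81% of a library; these and 92 spike-in rows were left out of tests. Rows sharing a symbol (627 rows, 311 symbols) were summed. Of nonzero values, 71.1 to 78.7% were whole multiples of 1 read (tolerance 0.01 reads), so whole reads could not be recovered from the deposited CPM and no count model was run; depth was read from that step.

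The 12943 genes that reached 5 CPM in 2 or more libraries were fitted on log2(CPM + 1) with limma 3.58.1 (trend, robust; statmod 1.5.0, R 4.3.3) over all 15 libraries, with 7 residual degrees of freedom and Benjamini-Hochberg adjustment within each comparison at 0.05. A fold change on this scale understates the change of low genes. The fit was tested on simulated data, where comparisons with FGF Sox2+ 7 d gave more false calls than the threshold allows, so a fit with weights from depth was added. Sums, ratios, promoter motifs and figures used Python 3.11.15, numpy 2.4.6, pandas 2.3.3 and matplotlib 3.10.9. Each CPM is limited by its library's depth, and read ratios have exact 95% intervals.

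Named with values were up to 6 called members per comparison and direction with the largest fold change, up to 2 per complex that had none among them, the paired isoforms, all mitochondrial-genome members, and up to 3 genes per direction of each other list. Sdhb was added to complete complex II after its values were seen. The members and lists were chosen with earlier results of these data known. Alternatives were 2 pseudocounts, 2 filters, 2 scalings, a replicate block and leaving out each of 12 libraries; weights from depth (20 in all) and a crossed block were added after seeing the data.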

Additional observations from a re-analysis of the deposited data

Results flagged for a closer look

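The change from 48 h to 7 d differed between the Tbxt-derived cells (Tbxt 7 d minus Tbxt 48 h) and the Sox2-derived cells (FGF Sox2+ 7 d minus Sox2 48 h) for 18 members by a limma test of the difference itself. That test includes FGF Sox2+ 7 d cells and was not simulated. Both simulated comparisons with that group gave more false calls than the threshold allows. The medium differs along with the lineage, so the 2 cannot be told apart. In FGF/CHIR Sox2+ 7 d (1 library) against FGF Sox2+ 7 d cells, which differ in CHIR, some flagged members also passed 1.5-fold. Atp5f1d, Cox6b2, Cox8a, Ndufs8 and Uqcrc1 were higher and Atp5mk and Cox7a1 lower, each with the sign of its difference below. Both measures subtract the same FGF Sox2+ 7 d libraries, so a shared sign is partly fixed in advance and is no support. The other flagged members did not pass 1.5-fold there, and the part of the medium was not tested. Differences below are log2 values, Tbxt-derived minus Sox2-derived, each with its SE and limma adjusted p over 12943 genes.

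Of complex IV, Cox6b2 had a difference of 3.21 ± 0.36 (limma adjusted p = 4.91e-05), with CPM above Tbxt 48 h cells in 3 of 3 Tbxt 7 d libraries and below Sox2 48 h cells in 2 of 2 FGF Sox2+ 7 d libraries. Cox5a, Cox7a2 and Cox7a1 had differences of −0.99 ± 0.15, −1.14 ± 0.23 and −2.39 ± 0.62 (limma adjusted p = 0.000533, 0.00303 and 0.0112). These 4 calls were not ended by any alternative that tested them. Cox7a1 rests on few reads and passed the filter only where it was high, so its kept call is no support. Cox4i1, Cox7a2l and Cox8a had differences of 1.08 ± 0.29, 0.74 ± 0.22 and 0.77 ± 0.25 (limma adjusted p = 0.0129, 0.0226 and 0.034), and Cox7b had −0.63 ± 0.22 (limma adjusted p = 0.0408). Alternatives ended these calls 2 times for Cox4i1, 4 for Cox7a2l, 10 for Cox8a and 11 for Cox7b.

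Of complex V, Atp5f1d, the delta subunit, had a difference of 1.79 ± 0.47 (limma adjusted p = 0.0136; adjusted p = 0.068 by limma without replicate 2 of Tbxt 48 h), and Atp5mk had −0.91 ± 0.31 (limma adjusted p = 0.0373). Of complex I, the difference was 1.37 ± 0.41 for Ndufs8, −0.84 ± 0.27 for Ndufs1, the largest core subunit, −0.68 ± 0.20 for Ndufa7 and −0.56 ± 0.17 for Ndufs6 (limma adjusted p = 0.0239, 0.0279, 0.0179 and 0.0259). Of complex III, Uqcrb and Uqcrfs1 had −0.57 ± 0.16 and −0.56 ± 0.17, and Uqcrc1 had 0.77 ± 0.25 (limma adjusted p = 0.0193, 0.0256 and 0.0339). Of the mitochondrial genome, mt-Co1 had 0.66 ± 0.22 (limma adjusted p = 0.0374). Of 20 alternatives, 8 ended the call of Ndufs1, 7 that of Ndufs6, 3 that of Ndufs8, 1 that of Ndufa7, 5 that of Uqcrfs1, 4 that of Uqcrb, 9 that of Uqcrc1, 8 that of mt-Co1 and 7 that of Atp5mk. Without replicate 2 of Tbxt 48 h, 5 nuclear calls were left, those of Cox6b2, Cox5a, Cox7a2, Cox7a1 and Ndufa7.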

How the results depend on the processing

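Over the named genes and all alternatives, 4796 values kept their side of the threshold, 293 calls were lost and 63 genes were newly called. Of values called in either fit, 0 reversed direction. Values called in neither fit count as kept even where their sign changed. Pseudocounts of 0.25 and 4, a filter at 20 CPM and CPM taken outside the mitochondrial genome left the counts of called members within 1.5 times, save 2 for nuclear genes of Sox2 48 h against NMPs at 0.25, against 1 as reported. In that pair the count was 0 with no filter, with median-of-ratios scaling and with the replicate block, and 2 with depth weights (added after seeing the data), which also gave 1 mitochondrial gene in Tbxt 48 h cells against NMPs. Without a filter the count of Tbxt 48 h against Sox2 48 h cells was 1, and the mitochondrial count of the difference of changes 0. Under median-of-ratios scaling 14 nuclear (2 higher, 12 lower) and 0 mitochondrial genes were called in FGF Sox2+ 7 d against Sox2 48 h cells, and 2 mitochondrial genes in Tbxt 7 d against Tbxt 48 h cells. The cause of these changes was not tested.

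The replicate numbers were not taken to pair the libraries. Same-numbered deviations correlated across genes at −0.19, −0.14 and −0.10 between Tbxt 7 d cells and NMPs, and −0.17 between Tbxt 48 h and Sox2 48 h cells. They correlated at 0.48 and 0.46 between Tbxt 48 h cells and NMPs, and 0.20 between FGF Sox2+ 7 d and Sox2 48 h cells, each with only 2 pairs. With the number as a replicate block over 12 libraries, nuclear counts were 3 for Tbxt 48 h against NMPs (7 as reported), 1 for Tbxt 48 h against Sox2 48 h, 14 (3 higher, 11 lower) for Tbxt 7 d against FGF Sox2+ 7 d and 9 (5 higher, 4 lower) for the difference of changes. Crossing the numbers of Tbxt 48 h, a choice made after seeing the data, gave 1 for Tbxt 48 h against Sox2 48 h cells.

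Leaving out each of 12 libraries, nuclear counts ranged over 23 to 38 (Tbxt 7 d against NMPs), 17 to 35 (against Tbxt 48 h), 12 to 27 (against FGF Sox2+ 7 d), 2 to 7 (FGF Sox2+ 7 d against Sox2 48 h), 2 to 10 (Tbxt 48 h against NMPs), 1 to 3 (Tbxt 48 h against Sox2 48 h), 0 to 3 (Sox2 48 h against NMPs) and 5 to 21 (difference of changes). Mitochondrial counts ranged over 4 to 9, 2 to 4, 0 to 5, 0 to 1, 0 to 1, 0 to 1, 0 to 1 and 0 to 2 in the same order. Cox7a1 was not tested at 20 CPM. Depth limits Cox7a1, Cox4i2 and mt-Nd6, and replicate 2 of FGF Sox2+ 7 d, at 0.799 M reads, limits each comparison with that group.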
